A study of Mus musculus with 4 samples.

Results

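The clustered histone genes encode the replication-dependent core histones H2A, H2B, H3 and H4 and the linker histone H1, which package newly copied DNA. They were taken as the protein-coding rows of the deposited count table whose symbol begins with HIST1H, HIST2H, HIST3H or HIST4H, which gave 71 of 58735 rows. RNA sequencing reads were counted in 4 libraries of Jurkat, a human line derived from a T cell leukaemia, with 2 libraries labelled wildtype and 2 labelled Matr3 knock out. MATR3, the gene of the nuclear matrix protein matrin 3, was targeted with CRISPR-Cas9, and the labels do not tell a single clone from a pool of edited cells. The organism label says mouse, but every row carries a human Ensembl identifier, so the rows were read as human.

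Replication-dependent histone genes lack introns and lie in clusters, and their transcripts end in a stem-loop in place of a poly(A) tail. The stem-loop-binding protein SLBP guides their processing, and the factor NPAT drives their transcription as cells enter S phase. Some clustered histone genes also give polyadenylated transcripts, mostly outside S phase. The variant histone genes are scattered through the genome, and most, such as H2AFZ and H3F3A, give ordinary polyadenylated transcripts.

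The total counts ranged from 15008554 to 17477643 per library. The targeted gene had few reads. The MATR3 row that could be tested (ENSG00000015479, chromosome 5, 139293648 to 139331677 as the table gives them, with no build named) held 19 and 9 reads in the wild-type pair and 42 and 61 in the knockout-labelled pair, and the other MATR3 row held 5, 1, 2 and 2. The rows overlap, so neither checks the knockout, and directions below are those of the knockout-labelled libraries against wild-type. The T cell label was checked against markers. The summed level of 13 T cell markers was 3371 to 3629 CPM (counts scaled to library size with TMM factors) in the wild-type pair and 1423 to 1459 CPM in the knockout-labelled pair, where none of the 13 was at 0 reads. The summed level of 15 myeloid markers was 110 to 114 CPM in wild-type and 5785 to 5904 CPM in the knockout-labelled pair. ELANE and CSF3R were at 0 reads in wild-type. MPO made up most of the knockout-labelled sum, at a mean of 4920 CPM there and 8.93 CPM in wild-type. AIF1, most of the wild-type sum, was at 74.95 and then 71.26 CPM and was called neither higher nor lower. CD14 had too few reads to be tested. Of 14 myeloid markers tested, 13 were higher, against 33.7% of all genes tested. The part of this marker difference in the histone results was not tested. In bulk samples, fewer cells of a type and less RNA per cell cannot be told apart. No label states that replicates were separate cultures. The p-values therefore reflect the spread among these 4 libraries, part or all of which may be technical.

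The clustered histone genes were read rarely in every library, and more often in those labelled knockout. All 71 together had 618 and 482 reads in the wild-type pair, against 2056 and 2145 in the knockout-labelled pair. These were 0.00354% and 0.00313% of all counts in the wild-type pair and 0.0137% and 0.0143% in the others. After scaling, the summed level was 32.9 ± 3.68 CPM in the wild-type pair and 142.4 ± 3.04 CPM in the knockout-labelled pair (SD, n = 2 each), a ratio of 4.33. No library of one group reached the range of the other. Without HIST1H2BK, the member with the most reads, the ratio was 3.44, and without the 5 members with the most reads it was 3.74.

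The low level limits what can be tested. Of the 71 members, 11 had no read in any library, 40 had reads but fell below the expression filter, and 20 were tested. The filter asked for about 10 reads in at least 2 libraries and 15 in all, and 11 of the 20 passed it only through the knockout-labelled pair, so the tested members are not a sample of all members. Of the 20 tested, 17 passed edgeR's quasi-likelihood test at an adjusted p of 0.05, against 66.0% of all 15294 genes tested. Of these, 15 were higher and 2 lower, against 33.7% of all genes tested that were higher and 32.3% that were lower. All 15 higher members were at least 2-fold higher, as were 15.6% of all genes tested, and 10 were at least 4-fold higher, as were 6.94%. The median log2 fold change was 2.10 over the 20 tested members and 0.02 over all genes tested. With no expression filter it was 1.27 over 60 members, with 1 CPM in at least 2 libraries 3.37 over 14, and with 1 CPM in both wild-type libraries 2.01 over 6. Because a member that passed only through the group where it is high had to differ, these counts and medians describe the members that passed and say nothing of the rest. For all 20 tested members the libraries of the 2 groups did not overlap, which held for 82.0% of all genes tested. With the filter set on wild-type alone, with each wild-type library at 1 CPM or above, 6 members were tested, of which HIST1H2BK, HIST1H1C, HIST1H2AC, HIST1H2AG and HIST1H2BD were higher and HIST3H2A was lower. The share of all genes higher under that filter was 34.4%.

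**Figure D1:**
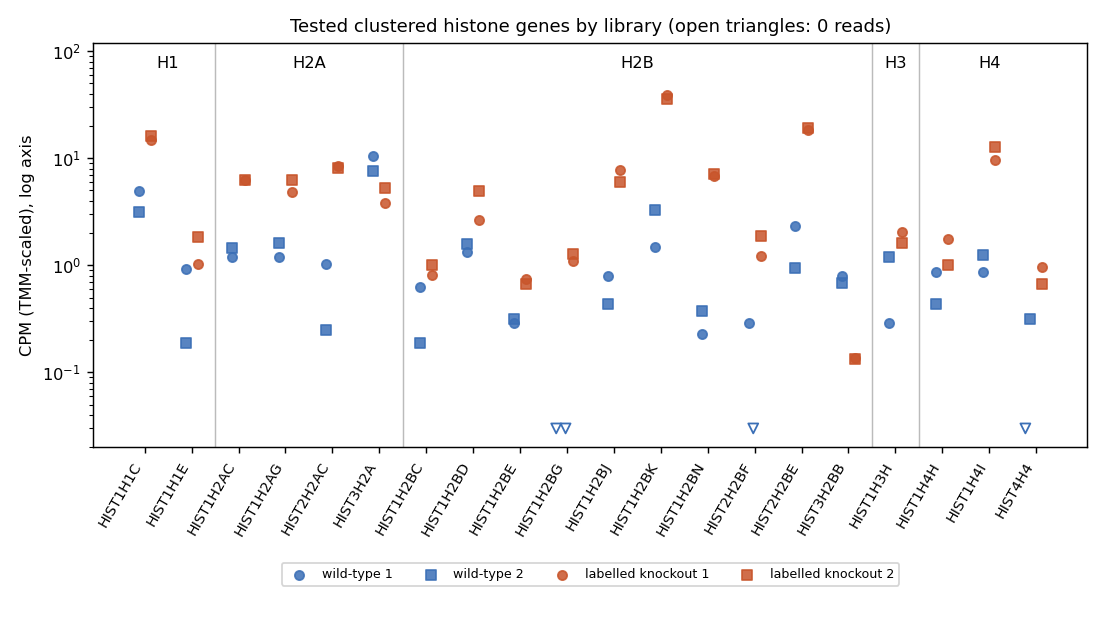
Level of each of the 20 tested clustered histone genes in each library, in CPM on a log axis, grouped by histone type; circles are replicate 1, squares replicate 2, and open triangles at the bottom mark libraries with 0 reads. HIST3H2A and HIST3H2BB are the members whose wild-type libraries lie above those labelled knockout.

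H2B genes encode a core histone that pairs with H2A in the nucleosome, and they made up most of the difference. The 18 H2B members had a summed level of 9.47 and 8.79 CPM in the wild-type pair and 79.8 and 79.0 CPM in the knockout-labelled pair. Their share of the members' reads was 27.9% ± 1.66 in the wild-type pair and 55.8% ± 1.57 in the knockout-labelled pair (SD, n = 2 each). Of these, 10 were tested, and 7 were higher, 1 was lower and 2 did not pass. The shares of all genes tested were 33.7% higher and 32.3% lower. The filter was met through the knockout-labelled pair alone by 6 of the 10.

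HIST1H2BK (ENSG00000197903, chromosome 6, 27146418 to 27146798) had the most reads of any member. It stood at 1.49 and 3.27 CPM in the wild-type pair and at 39.0 and 35.7 CPM in the knockout-labelled pair. Both knockout-labelled libraries lay far above both wild-type libraries, while the groups did not overlap in 82.0% of all genes tested. The log2 fold change was 3.99 (SE 0.193, edgeR adjusted p = 5.17e-31), and it was 4.62 without wild-type replicate 2. This gene alone took 7.50% ± 4.65 of the members' reads in the wild-type pair and 26.3% ± 2.20 in the knockout-labelled pair (SD, n = 2 each).

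HIST2H2BE (ENSG00000184678, chromosome 1, 149884459 to 149886652), an H2B gene of the HIST2 cluster, stood at 2.35 and 0.942 CPM in the wild-type pair and at 18.3 and 19.0 CPM in the knockout-labelled pair. The wild-type libraries differed more from each other than the other pair did. Its log2 fold change was 3.47 (SE 0.235, edgeR adjusted p = 1.17e-22), and 4.31 without wild-type replicate 1. HIST1H2BJ rose from 0.804 and 0.440 CPM to 7.84 and 6.001 CPM, with a log2 fold change of 3.44. HIST1H2BN rose from 0.230 and 0.377 CPM to 6.89 and 7.08 CPM. Behind these values were 10 wild-type reads and 206 in the knockout-labelled pair, a ratio of 23.3 with a 95% exact conditional interval of 12.4 to 49.3 that covers counting error only. Its row overlaps those of HIST1H2AK and HIST1H2AL, so reads in the shared parts may have been counted for none of them.

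The other tested H2B genes of these clusters had at most 25 reads in a wild-type library. HIST1H2BG had 0 reads in both wild-type libraries and 16 and 19 in those labelled knockout. Set against a floor of 3 counts for the 2 wild-type libraries together, this was at least 13.2-fold higher. HIST2H2BF had 5 and 0 reads in the wild-type pair and 18 and 28 in the knockout-labelled pair, a ratio of 10.4 (interval 4.15 to 33.5). Its log2 fold change of 3.32 became 7.58 without wild-type replicate 1 and 2.40 without wild-type replicate 2. The HIST2H2BF row also overlaps FCGR1A, a myeloid Fc receptor gene with 8 and 8 reads in the wild-type pair and 598 and 551 in the knockout-labelled pair. Without a known strand setting, the reads of these overlapping rows cannot be told apart. HIST1H2BD stood at 1.32 and 1.57 CPM in the wild-type pair and at 2.66 and 4.99 CPM in the others (log2 fold change 1.40), and it no longer passed without knockout-labelled replicate 2 (adjusted p = 0.119). HIST1H2BC and HIST1H2BE did not pass, with log2 fold changes of 1.12 (adjusted p = 0.0901) and 1.23 (adjusted p = 0.0918). HIST1H2BC passed without wild-type replicate 1 (adjusted p = 0.0431).

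H2A genes moved in both directions. HIST2H2AC, which lies head to head with HIST2H2BE, rose from 1.03 and 0.251 CPM to 8.46 and 8.09 CPM. Its log2 fold change of 3.64 (SE 0.326, edgeR adjusted p = 1.30e-16) was 5.01 without wild-type replicate 1 and 2.98 without wild-type replicate 2. HIST1H2AC rose from 1.21 and 1.45 CPM to 6.28 and 6.27 CPM (log2 fold change 2.24), and HIST1H2AG from 1.21 and 1.63 CPM to 4.84 and 6.20 CPM (1.96). In these 3 genes the lowest knockout-labelled library was above the highest wild-type library. The groups did not overlap in 82.0% of all genes tested. HIST2H2AC passed the filter only through the knockout-labelled pair.

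HIST3H2A (ENSG00000181218, chromosome 1, 228456979 to 228457873) went the other way. It was the member with the most reads in wild-type, at 10.45 and 7.54 CPM, and fell to 3.82 and 5.33 CPM in the knockout-labelled pair. The log2 fold change was -0.98 (SE 0.219, edgeR adjusted p = 6.79e-05). It took 27.2% ± 3.22 of the members' reads in the wild-type pair and 3.20% ± 0.678 in the knockout-labelled pair (SD, n = 2 each). The H2A members as a whole stood at 14.5 and 11.4 CPM in the wild-type pair and at 24.8 and 27.4 CPM in the others, a ratio of 2.02.

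Linker histone genes are represented by 6 members, of which HIST1H1C and HIST1H1E were tested. HIST1H1C (ENSG00000187837, chromosome 6, 26055787 to 26056428) rose from 4.94 and 3.14 CPM to 14.7 and 16.1 CPM, with a log2 fold change of 1.92 (SE 0.203, edgeR adjusted p = 1.35e-13). HIST1H1E had 16 and 3 reads in the wild-type pair and 15 and 27 in the knockout-labelled pair. It passed edgeR's test (log2 fold change 1.32, adjusted p = 0.0233), but not at a threshold of 0.01. Nor did it pass without TMM factors, with the DESeq2 Wald test or with no expression filter. It also did not pass without wild-type replicate 2 (0.61) or knockout-labelled replicate 2 (0.86). Its log2 fold change was 2.88 without wild-type replicate 1.

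H4 and H3 genes had fewer tested members. HIST1H4I (ENSG00000276180, chromosome 6, 27138588 to 27139881) rose from 0.861 and 1.26 CPM to 9.69 and 12.7 CPM, with a log2 fold change of 3.41 (SE 0.270, edgeR adjusted p = 4.69e-19). HIST4H4, the lone member on chromosome 12, had 0 and 5 reads in the wild-type pair and 14 and 10 in the others. This was a ratio of 5.43 (interval 2.03 to 18.2). HIST4H4 passed edgeR's test (log2 fold change 2.37, adjusted p = 0.00479), but not the DESeq2 Wald test, nor edgeR's with no expression filter. It also did not pass without wild-type replicate 1 (1.37) or knockout-labelled replicate 1 (2.10). Its log2 fold change was 6.68 without wild-type replicate 2. HIST1H4H, with a log2 fold change of 1.07, did not pass (adjusted p = 0.0529), and passed without wild-type replicate 1 (1.66, adjusted p = 0.0451) and under 3 other settings.

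Of 15 H3 members, HIST1H3H alone had enough reads to be tested, with 5 and 19 in the wild-type pair and 30 and 24 in the knockout-labelled pair. It passed edgeR's test (log2 fold change 1.33, adjusted p = 0.0121), but not at a threshold of 0.01. Nor did it pass without TMM factors, with the DESeq2 Wald test or with no expression filter. It also did not pass without wild-type replicate 1 (0.63) or knockout-labelled replicate 1 (1.14). Its log2 fold change was 2.63 without wild-type replicate 2. The summed level of all H3 members was 2.07 and 3.14 CPM in the wild-type pair and 4.43 and 3.51 CPM in the others, a ratio of 1.52. For the 15 H4 members the ratio was 4.66, for H1 3.56 and for H2B 8.69. Differences between these ratios were not tested.

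**Figure D2:**
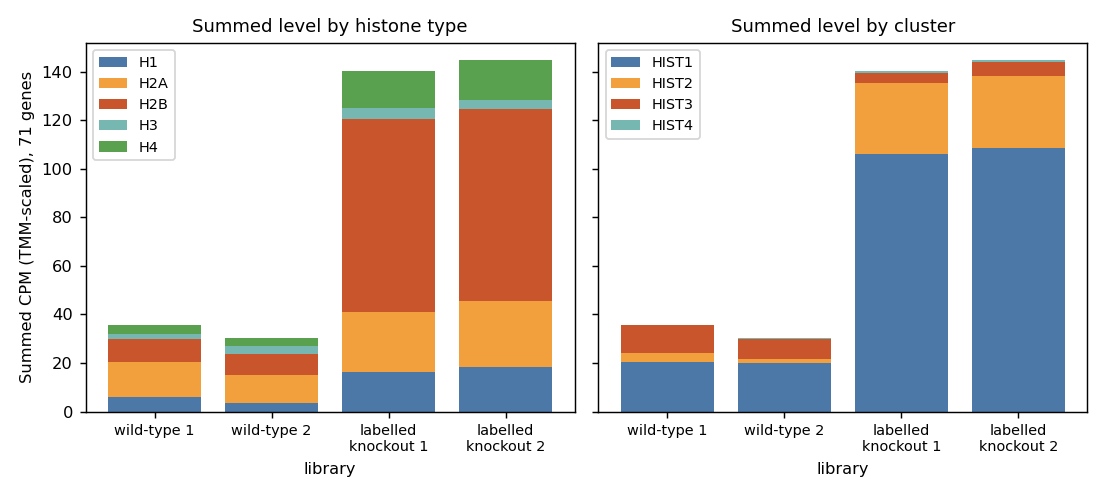
Summed level of the 71 clustered histone genes in each library, in CPM, stacked by histone type on the left and by cluster on the right. H2B genes and the HIST1 cluster make up the largest part of the bars of the knockout-labelled pair, and the HIST3 part is smaller there than in wild-type.

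By cluster, the summed level of all members was higher in the knockout-labelled pair for HIST1, HIST2 and HIST4 and lower for HIST3. The HIST1 cluster spans 2168 kb of chromosome 6 and holds 55 members, of which 14 were tested, 11 were higher and 0 lower, and 8 of the 14 passed the filter only through the knockout-labelled pair. Its summed level was 20.3 and 20.2 CPM in the wild-type pair and 106.1 and 108.7 CPM in the knockout-labelled pair. HIST1 falls into 2 blocks of histone genes. The block from 25726132 to 26285638 holds 34 members and had a ratio of 3.11, while the block from 27125897 to 27893843 holds 21 members and had a ratio of 7.94. These ratios cover every member of a block, tested or not, and the difference between them was not tested. Members called higher numbered 5 of 8 in the first block and 6 of 6 in the second, against 33.7% of all genes tested. However, 5 of those 8 and 3 of those 6 passed the filter only through the knockout-labelled pair, so the counts do not compare the blocks.

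The HIST2 cluster on chromosome 1 had 68 and 25 reads in the wild-type pair and 428 and 439 in the knockout-labelled pair, over all its members. The 3 tested, HIST2H2BE, HIST2H2AC and HIST2H2BF, were called higher, but HIST2H2AC and HIST2H2BF passed the filter only through the knockout-labelled pair, and none of the 3 was tested with the filter set on wild-type alone. Of its 12 members, 11 lie within 105.2 kb, and HIST2H3PS2, which had no reads, lies apart. The HIST3 cluster, farther along chromosome 1, holds 3 members within 35.63 kb. Both HIST3 members tested were lower, and HIST3H2BB passed the filter only through the wild-type pair. HIST3H2BB had 14 and 11 reads in the wild-type pair and 2 and 2 in the others, a ratio of 0.181 (interval 0.0458 to 0.524). Its log2 fold change of -2.40 (adjusted p = 0.00486) no longer passed without wild-type replicate 1 (adjusted p = 0.0632), without knockout-labelled replicate 1 (adjusted p = 0.0973) or without knockout-labelled replicate 2 (adjusted p = 0.0979). HIST3H3, the testis-type H3 gene of this cluster, had 3 reads, all in knockout-labelled replicate 2.

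H2A and H2B genes often lie head to head and share the short stretch between their starts. Among the members there were 12 head-to-head pairs, each a minus-strand gene followed by a plus-strand gene whose row does not overlap it, with at most 1000 bases between the annotated starts, and 11 of them joined an H2A to an H2B gene. HIST1H2BO was counted with both HIST1H3J and HIST1H2AM, whose rows overlap, so the pairs are not all separate. Both genes of a pair were tested in 4 cases, and in each the 2 fitted changes had the same sign. HIST2H2BE and HIST2H2AC, 322 bases apart, were both higher, and so were HIST1H2BJ and HIST1H2AG, 291 bases apart. HIST3H2A and HIST3H2BB, 233 bases apart, were both lower. In the fourth pair HIST1H2AC was higher and HIST1H2BC did not pass. The filter was met only through the knockout-labelled pair by HIST2H2AC, HIST1H2BJ and HIST1H2BC and only through the wild-type pair by HIST3H2BB, so the shared signs are a description.

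Other pairs had unequal read counts. HIST1H2BK went from 78 to 1102 reads over the 2 libraries of each group, whereas its partner HIST1H2AH, with 330 bases between the starts, went from 2 to 0. HIST1H2BG went from 0 to 35 reads and its partner HIST1H2AE from 0 to 11. Per kilobase of annotated exon, however, these genes stood at 0.773 and 0.731 CPM in the knockout-labelled pair. HIST1H2BL had 15 and 2 reads in the wild-type pair and 1 and 1 in the knockout-labelled pair, while its partner HIST1H2AI had 7 and 3 and then 10 and 7. Neither gene of that last pair had enough reads to be tested.

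Annotated length differed between the tested members and the rest. The median length of the exons in a row was 1414 bases for the tested members, 411 bases for those not tested and 4553 bases for all genes tested. Of 28 members longer than 700 bases, 17 were tested, against 3 of 43 up to that length, a limit chosen after the values were seen. A longer row can collect more reads at the same level per base. Per kilobase of annotated exon, however, the short rows of HIST1H2BK, HIST1H1C and HIST2H2AC stood highest in the knockout-labelled pair. HIST1H2BK was at 98.1 RPKM there (reads per kilobase, the CPM divided by exon length in kb) and at 6.25 RPKM in wild-type. HIST1H1C was at 24.0 and 6.29 RPKM, and HIST2H2AC at 21.2 and 1.65 RPKM. In wild-type HIST3H2A was the highest of the tested members, at 10.1 RPKM.

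The 51 members that were not tested had 96 and 81 reads in the wild-type pair and 116 and 103 in the knockout-labelled pair, or 5.51, 5.09, 7.91 and 6.95 CPM, a ratio of 1.40. A member with many more reads in the knockout-labelled pair would have passed the filter, so the split itself keeps this ratio low and it is not compared with that of the tested members. Of the 40 that had reads, 28 had the higher mean in the knockout-labelled pair and 12 the lower, and 23 had 10 reads or fewer in all. The most read were HIST1H4K with 34 reads in all, HIST1H2AI, HIST1H4E, HIST1H3B, HIST1H3J, HIST1H2BO, HIST1H2BL, HIST1H3G, HIST1H3I and HIST2H3D. HIST1H4K had 5 and 5 reads in the wild-type pair and 15 and 9 in the others. HIST1H4A had 6 and 5 reads in the wild-type pair and 1 and 3 in the others, and HIST1H4D had 5 and 1 in the wild-type pair and 0 in both others, both named after their values were seen. Members with near-identical copies, such as HIST2H2AA3 and HIST2H2AA4 with 1 read each, have uncertain counts, because reads that match several places may have been dropped.

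The neighbours of the clusters were compared in the same fit, in which 33.7% of all genes tested were higher and 32.3% lower. Between the outermost HIST1 members lie 20 other protein-coding genes, and 12 were tested, of which 5 were higher and 3 lower (median log2 fold change 0.21). Without knockout-labelled replicate 1, these counts were 3 and 1. TRIM38, a ubiquitin ligase of innate immune signalling, was at 1.35, ZNF184 at 1.15, ZNF391 at 0.66 and the butyrophilin gene BTN2A1 at 0.54. ZNF322, ABT1 and HMGN4 were lower, at -0.66, -0.51 and -0.21. In the 2 flanks of 1 Mb, 9 of 13 genes tested were higher and 3 lower (median 1.25). The higher flank genes all lie beyond the second block. Among them ZSCAN9, a zinc finger gene, went from 3 and 0 reads to 200 and 214, and ZKSCAN8 was at 1.56.

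Around HIST2 most neighbours were higher as well. Between its outermost members 24 of 33 genes tested were higher and 3 lower (median 0.92). In the flanks 20 of 22 were higher and 2 lower (median 1.94), against 33.7% and 32.3% of all genes tested. Without the distant HIST2H3PS2, a boundary chosen after the data were seen, 2 neighbours lie inside the cluster, FCGR1A at 6.32 and BOLA1 at -1.36, and 22 of 25 flank genes tested were higher (median 1.88). Named genes of the flanks included the lysosomal protease gene CTSS at 6.28 and the anti-apoptotic gene MCL1 at 3.07, while SV2A, next to BOLA1, was at -1.02 and PLEKHO1 at -1.31. The higher HIST2 members thus lay in a region where most genes tested within 1 Mb were higher. However, BOLA1 and SV2A, the tested neighbours nearest to HIST2H2BE and HIST2H2AC, were lower. The part of the surrounding region in the values of the HIST2 members was not tested.

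For HIST3 and HIST4 the neighbours within 1 Mb were looked at after the values of their members were seen. Around HIST3, 9 of 17 genes tested were lower and 1 was higher (median -0.36), against 32.3% and 33.7% of all genes tested. GUK1, the guanylate kinase gene, was at -1.24 and IBA57 at -1.04. Around HIST4H4, 2 of 6 genes tested were higher and 1 was lower (median 0.15).

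**Figure D3:**
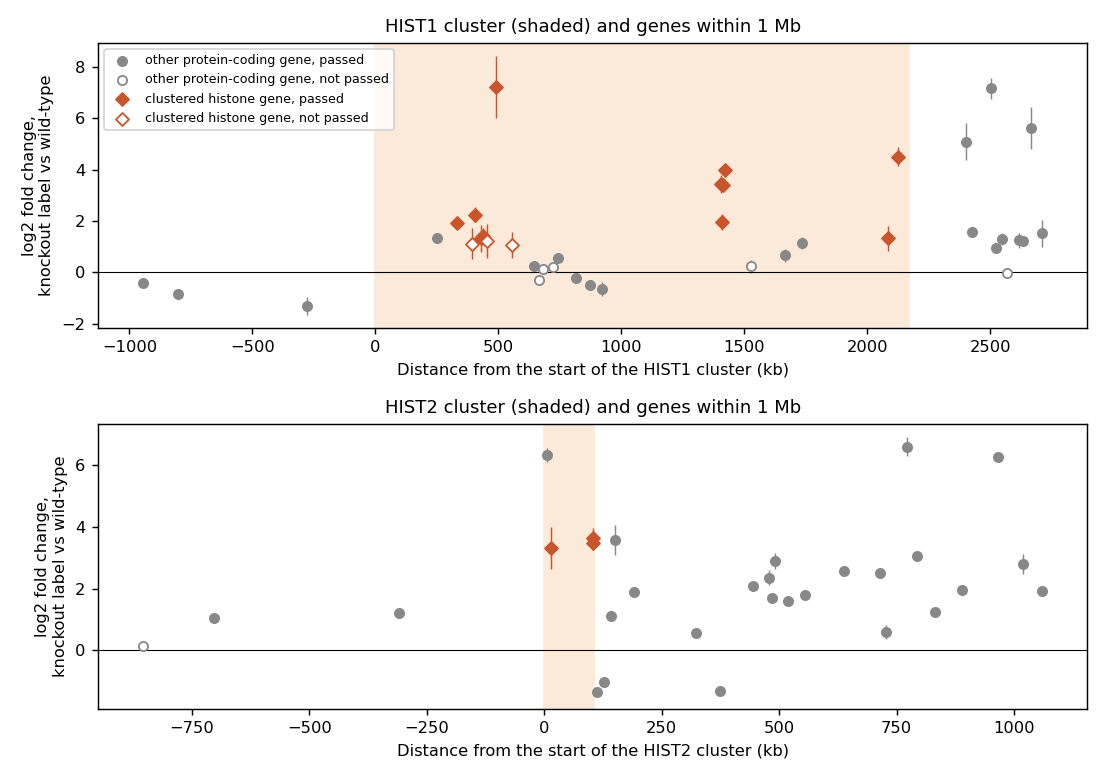
Log2 fold change, knockout-labelled libraries against wild-type, of tested genes by distance in kb from the first member of the HIST1 cluster (top) and of the HIST2 cluster without HIST2H3PS2 (bottom); bars are standard errors, open symbols did not pass the test, and the shading spans the cluster. Most of the tested HIST1 members stand above the other genes inside the cluster. However, 8 of the 14 HIST1 members shown passed the expression filter only through the knockout-labelled pair, so their height does not compare them with these neighbours. HIST1H2BG at 7.23 is a fitted value of a gene with 0 wild-type reads, which is no bound.

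Most of the scattered variant histone genes were lower. Of 12 listed, 10 were tested, 8 were lower and 2 higher (median -0.44), against 32.3% and 33.7% of all genes tested. H2AFZ, the gene of H2A.Z, fell from 564.8 ± 1.85 to 289.2 ± 3.88 CPM (SD, n = 2 each), a log2 fold change of -0.97. H2AFY, the macroH2A gene, was at -0.93, H3F3A, which encodes H3.3, at -0.69 and H2AFX, whose product is marked at DNA breaks, at -0.65. H2AFY2 was higher, from 37 and 25 to 147 and 128 reads (log2 fold change 2.32), and H1FX was at 0.16. H1FX no longer passed with DESeq2 size factors or without either one of the knockout-labelled libraries. Per length, H2AFZ stood above every tested clustered gene in both groups. It was at 245.3 RPKM in the wild-type pair and 125.6 RPKM in the knockout-labelled pair, against at most 10.1 and 98.1 RPKM among them.

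Of 25 tested genes that act in histone transcription and transcript processing, 13 were lower and 7 higher (median -0.27). The shares of all genes tested were 32.3% lower and 33.7% higher. SLBP fell from 187.3 to 97.0 CPM (log2 fold change -0.95), and the cleavage factor gene CSTF2T was at -1.29, the decapping cofactor LSM1 at -1.09 and the cyclin gene CCNE2 at -0.91. In the other direction, NPAT rose from 6.13 to 11.6 CPM (0.92). CASP8AP2, which encodes the NPAT partner FLASH, was at 0.52, the cleavage factor gene CPSF2 at 0.71 and the exonuclease gene XRN1 at 1.74. LSM11, a subunit of the histone-specific U7 particle, did not pass, at 0.14.

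Of 29 histone chaperone genes, 12 were lower and 10 higher (median -0.03). Of all genes tested, 32.3% were lower and 33.7% higher, so these chaperone counts do not set the list apart. CHAF1B, CHAF1A and ASF1B, which load new histones behind the replication fork, were at -1.32, -0.81 and -0.83. ANP32E, a chaperone that removes H2A.Z, was at 2.08, UBN2 at 1.16, NPM1 at 1.10 and SUPT16H, a FACT subunit, at 1.00. ANP32E lies in the flank of the HIST2 cluster. Of 34 genes of DNA replication and S phase, 28 were lower and 5 higher (median -0.76), with GINS2 at -1.66, GINS1 at -1.38, UHRF1 at -1.36 and MCM4 at -1.22, and with PRIM1 at 0.87 and CDT1 at 0.77.

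Transcripts that track how RNA was selected were read beside the histone genes. Of 24 other RNAs that lack a poly(A) tail, RN7SL2 alone had enough reads to be tested, with 90 and 127 reads in the wild-type pair and 94 and 420 in the knockout-labelled pair. Without knockout-labelled replicate 2 it no longer passed. The small RNAs RN7SK, RMRP, RPPH1 and TERC had 0 reads in every library. RMRP has 2 rows that overlap on the same strand, so its reads may have been counted for neither. All 15 mitochondrially encoded genes were higher (median 1.01), against 33.7% of all genes tested. These 15 took 4.90% to 5.29% of the counts in the wild-type pair and 9.27% to 9.44% in the knockout-labelled pair. The part of RNA selection or RNA quality in the histone values was not tested.

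**Figure D4:**
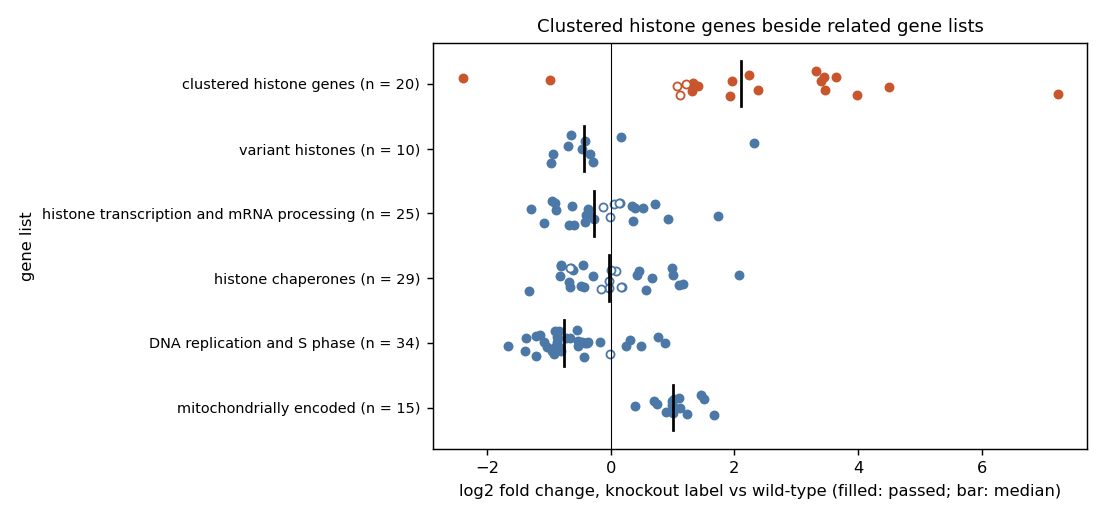
Log2 fold change, knockout-labelled libraries against wild-type, of each tested clustered histone gene and of each tested gene of 5 related lists; filled points passed the test, open points did not, and black bars are medians. The tested clustered histone genes lie mostly above 1, while the variant histone and S phase lists lie mostly below 0. Of the 20 clustered histone genes shown, 11 passed the expression filter only through the knockout-labelled pair. Their position is therefore partly set by the filter and does not compare them with the other lists.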

How the data were processed

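Read counts per gene were deposited for 4 RNA-seq libraries as raw counts in 1 table, and all 4 sample columns were used. Per the submitters' processing notes, the tools were featureCounts 1.5.0-p3, HISAT2 2.0.5 and CASAVA 1.8, with no roles stated. The build, the strandedness and the handling of reads matching several places are each not given in the sources used here. Symbols, biotypes, exon lengths and coordinates are those of the deposited table.

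The 58735 rows were fitted together with edgeR 4.0.16 under R 4.3.3. Rows passed filterByExpr at its defaults (about 10 counts in at least 2 libraries, 15 overall), were scaled by TMM and went into a quasi-likelihood test, two-sided, with Benjamini-Hochberg adjustment over 15294 genes. CPM values carry the TMM factors. No covariate was used. Alternatives included DESeq2 1.42.0 and limma 3.58.1.

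On simulated counts (15294 genes, of which 14168 were tested), recovery was 76% at a 2-fold change and 95% at a 4-fold change, with 7 false calls among 178. The simulation changed 100 genes at each fold, all with a wild-type mean of at least 1 CPM. Many tested members lay below that level, and far more genes were called in the real data. The recovery and false calls therefore do not describe these members.

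The members, lists and named-gene rule (every tested member, the 10 most read untested ones, and up to 4 of the most changed genes in each direction of each list or neighbourhood) were chosen with earlier results of these data known.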

Additional observations from a re-analysis of the deposited data

How the results depend on the processing

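The libraries hold few reads of most clustered histone genes, and this depth limits what can be called. No member changed direction under any alternative that could test it. Of 17 members called, 12 kept their call under every such alternative, and HIST1H1E, HIST1H2BD, HIST1H3H, HIST3H2BB and HIST4H4 lost it under at least 1. The DESeq2 Wald test did not call HIST1H1E, HIST1H3H and HIST4H4, which were higher with edgeR. The count of lower members was 2, and it was 1 with that test, which did not call HIST3H2BB. With 1 CPM in at least 2 libraries it was 1 of 14 tested, and with 1 CPM in both wild-type libraries 5 were higher and 1 lower of 6 tested, fewer because fewer members were tested. Leaving out 1 library at a time gave 1 to 3 lower and 13 to 15 higher members, and medians from 1.77 to 2.19. The median of 2.10 was 1.27 over 60 members with no expression filter and 3.37 over 14 members with 1 CPM in at least 2 libraries. With the replicate number as a block, 15 members were higher and 2 lower, and the deviations of same-numbered libraries correlated at 0.0261 across genes, so the numbers were not taken to pair the libraries.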

Other observations

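Histone-named rows of other biotypes, mostly pseudogenes, were outside the comparison. There were 19 such rows, and 2 had enough reads to be tested. HIST2H2BC, an H2B pseudogene in the chromosome 1 cluster, held 25 and 35 wild-type reads against 142 and 133 in the knockout-labelled pair (log2 fold change 2.37, edgeR adjusted p = 2.10e-13). HIST2H2BD, an overlapping H2B pseudogene, held 6 and 5 wild-type reads against 61 and 58 (3.58, adjusted p = 2.85e-11).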
